A study of Mus musculus with 10 samples.

Results

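The genes described here were 10 of the 50600 genes in the RNA-seq files: the Wnt feedback genes Nkd1, Nkd2, Axin2, Rnf43 and Znrf3, the Wnt target Sp5, and the TCF/LEF transcription factors Lef1, Tcf7, Tcf7l1 and Tcf7l2. They were chosen by name, and each symbol matched 1 gene. Mouse embryonic fibroblasts (MEFs) of CBA/CaJ X C57BL/6J embryos at E13.5, which carry an Oct4-GFP reporter per the study's methods, received retroviral Oct4, Klf4 and Sox2 (OKS) in both arms, together with the transcription factor FoxO6 in one arm and with DsRed (labelled DR), a red fluorescent protein that served as control, in the other. Both arms were then kept in iCD1 medium and collected at days 0, 1, 3, 5 and 7, and each arm gave 1 library on each day, 10 in all. A difference on a single day therefore has no replicate check, and nothing says that the 5 collections of an arm were separate infections. In what follows these are the DsRed arm and the FoxO6 arm, and a run of 5 values always stands for the 5 days in order. RNA levels are given as TPM (a level per transcript length, scaled to the library) and as reads (RSEM expected counts). The libraries held between 1208379 and 2225750 reads, with a median of 1601151. Foxo6 had a TPM between 0.61 and 2.29 in the DsRed libraries and between 762 and 1356 in the FoxO6 libraries, day 0 included.

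In canonical Wnt signalling, a Wnt ligand bound to Frizzled and LRP receptors stops the destruction complex of Apc, Axin and Gsk3 from degrading beta-catenin, which then enters the nucleus and binds the TCF/LEF factors on target genes. Several targets encode inhibitors of the pathway itself. Axin2 is a scaffold of the destruction complex, the Naked proteins Nkd1 and Nkd2 bind Dishevelled, and the membrane ubiquitin ligases Rnf43 and Znrf3 remove Frizzled from the cell surface. Sp5 is a zinc finger transcription factor that is itself a Wnt target. Tcf7l1 acts mostly as a repressor in mouse embryonic stem cells, and release from it, by Wnt or by a Gsk3 inhibitor, helps to keep those cells pluripotent. Axin2, Rnf43, Tcf7 and Znrf3 lie on chromosome 11, which thus holds 4 of the 10 genes, and the other 6 lie on 6 different chromosomes.

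The bases before the transcription start were examined for the TCF/LEF core motif, searched as CTTTGAA or CTTTGAT on both strands, and for the forkhead motif, searched as GTAAACA on both strands. The RefSeq promoters used here (GRCm38.p6) held 15 start sites for 9 of the 10 genes, all but Znrf3. The TCF/LEF letters were found in the 250 bases before 1 of the 15 starts, that of Sp5, at positions -104 to -98 counted back from the start, against 7.48% of all 32851 promoters. The forkhead letters were found before none of the 15 starts, against 3.17% of all promoters. A match is only a match of letters. The windows of Sp5, the 1 gene with a match, of Nkd1, the 1 gene whose level differed between the arms in the test below, and of Axin2, the general reporter of the pathway, are printed on the plus strand, which is their coding strand, with the TCF/LEF letters in capitals.
Sp5, chr2:70474673-70474922: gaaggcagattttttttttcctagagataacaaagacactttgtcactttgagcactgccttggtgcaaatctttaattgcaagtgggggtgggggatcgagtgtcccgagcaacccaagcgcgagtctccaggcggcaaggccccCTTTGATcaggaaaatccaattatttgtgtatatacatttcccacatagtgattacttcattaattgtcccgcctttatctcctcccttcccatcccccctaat
Nkd1, chr8:88527383-88527632: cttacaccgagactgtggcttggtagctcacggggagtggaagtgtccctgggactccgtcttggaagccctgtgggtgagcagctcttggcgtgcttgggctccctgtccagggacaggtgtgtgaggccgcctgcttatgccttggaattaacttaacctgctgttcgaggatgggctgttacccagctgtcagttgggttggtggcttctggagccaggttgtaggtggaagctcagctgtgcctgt
Axin2, chr11:108920099-108920348: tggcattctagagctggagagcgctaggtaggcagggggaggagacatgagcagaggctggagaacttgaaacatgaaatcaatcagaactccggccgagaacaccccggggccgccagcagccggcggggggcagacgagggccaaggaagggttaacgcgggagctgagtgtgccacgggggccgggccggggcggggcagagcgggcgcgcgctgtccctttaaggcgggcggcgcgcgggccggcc

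Nkd1 (ENSMUSG00000031661, chromosome 8, 88521354 to 88594884, plus strand, GRCm38) was the gene that moved most, rising during the course in both arms and reaching a lower level with FoxO6. Its TPM was 4.38, 1.33, 22.1, 153 and 189 in the DsRed arm. With FoxO6 it read 3.11, 2.58, 13.1, 27.6 and 66.5. At days 0 and 1 there were 3 to 6 reads a library, too few to tell whether the arms differed, and from day 3 on they lay apart. From day 0 to day 7 its reads per library total (CPM, scaled with TMM factors) rose 64.3-fold in the DsRed arm (exact 95% interval 24.9 to 237) and 29.8-fold in the FoxO6 arm (13.3 to 82.7). These intervals, and those that follow, cover counting error only. Nkd1 passed the test of a change over the days that the arms share (edgeR's quasi-likelihood test, adjusted p = 1.28e-05), one of 3 to do so among the 8 genes that could be tested, against 20.2% of all genes tested. Between the arms, Nkd1 was 3.10-fold higher in the DsRed arm at day 3 (41 against 18 reads), 5.33-fold higher at day 5 (215 against 62 reads) and 2.70-fold higher at day 7 (422 against 132 reads) on CPM. The interval of the ratio of the FoxO6 over the DsRed arm lay below 1 on these 3 days, at 0.174 to 0.574, 0.139 to 0.250 and 0.303 to 0.452. At days 0 and 1 it ran from 0.190 to 3.85 and from 0.122 to 6.81. A steady change of the difference with the day was not called by edgeR's test (-0.07 log2 units per day, standard error 0.124, adjusted p = 0.81). At day 3 the size depends on the effective length (2546 bases in the DsRed and 1411 in the FoxO6 library), and the difference of the FoxO6 from the DsRed arm was -0.71 on log2(TPM + 1), short of 2-fold. The start of Nkd1 in RefSeq lies inside the GENCODE gene, so the printed window is an internal stretch of the annotated gene.

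To ask whether the arms differed over the course as a whole, the rounded counts of all 5 days were fitted with an arm term and a factor for day (edgeR, quasi-likelihood test, Benjamini-Hochberg adjustment over 12212 genes). Of the 10 genes, 8 passed the filter on low counts, and Rnf43 and Sp5 did not. Nkd1 alone passed the test, with -1.68 on the log2 scale (standard error 0.251, adjusted p = 0.00173), and it was lower on 4 of the 5 days on TPM and on all 5 on CPM. In the FoxO6 arm, 6.97% of all genes tested were called lower and 6.48% higher. Of the 8 genes, 6 had a negative and 2 a positive log2 fold change, with a median of -0.19 against -0.03 for all genes tested. The cells are a mixture, and fewer cells that express a gene cannot be told apart from less RNA per cell. Of 6 epithelial markers, Cdh1, Epcam and Krt8 were called lower in the FoxO6 arm by the same test, Cldn3 (adjusted p = 0.057) and Cldn7 (adjusted p = 0.382) were not, and Krt18 was not tested. Their summed TPM went from 15.1 at day 0 to 660 at day 7 in the DsRed arm and from 3.14 to 153 in the FoxO6 arm, the lowest and highest of each arm, and none of the 6 was at 0 in all libraries of an arm. Their part in the result was not tested.

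**Figure D1:**
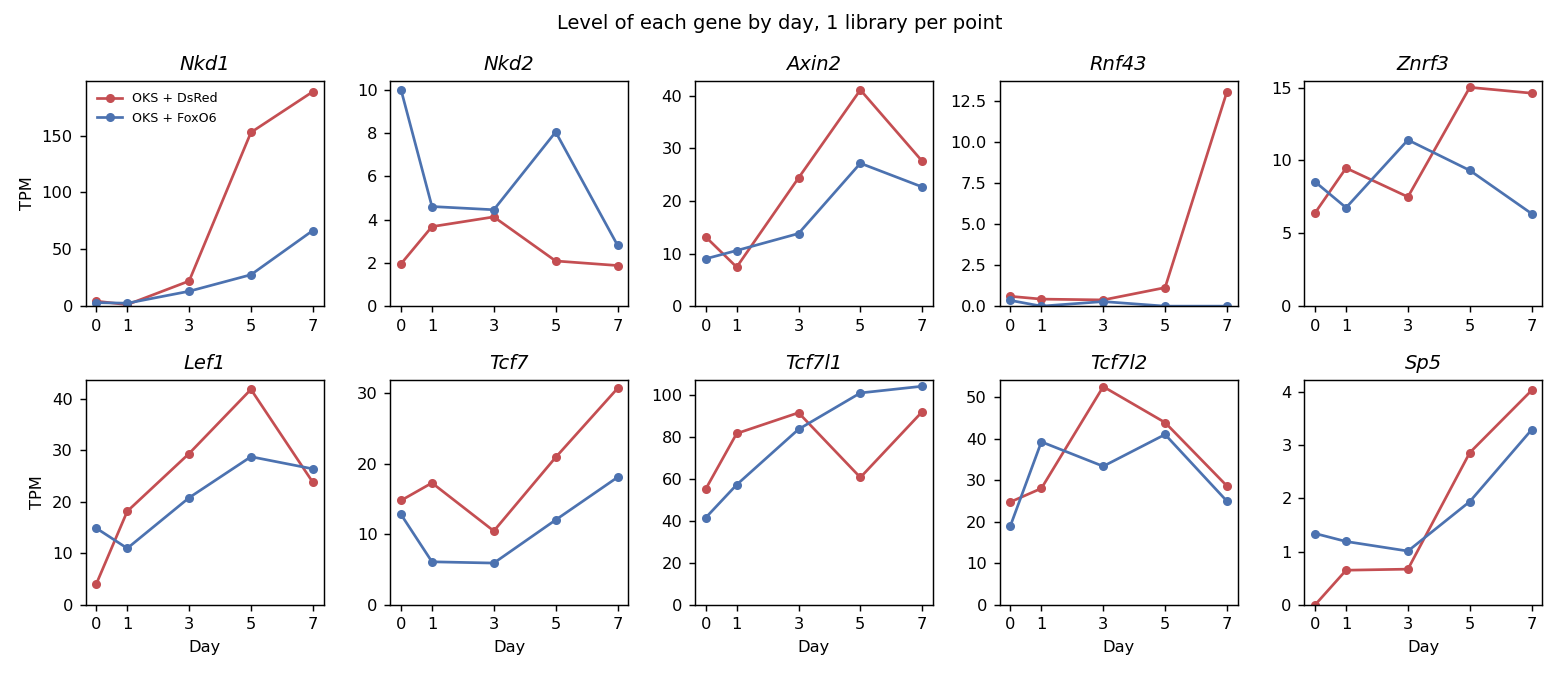
TPM (vertical axes, each from 0 and each with its own scale) of the 10 genes against the day of collection, with 1 library per point, OKS + DsRed in red and OKS + FoxO6 in blue. Nkd1 climbs in both arms, to 189 in the DsRed arm and 66.5 in the FoxO6 arm at day 7, while Rnf43 leaves the floor only in the DsRed arm at day 7, at 13.1.

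Axin2 (ENSMUSG00000000142, chromosome 11, 108920349 to 108950783), whose RNA is widely read as a sign of Wnt activity, rose over the course in both arms with a much smaller range than Nkd1. Its TPM was 13.2, 7.42, 24.4, 41.1 and 27.5 in the DsRed arm and 9.0, 10.6, 13.8, 27.2 and 22.7 in the FoxO6 arm. On TPM the highest level was that of day 5 in both arms, while on CPM it was that of day 7 in the FoxO6 arm (39.8 against 32.9 at day 5), whose day 5 library had the shortest effective length of the gene (2544 bases). Axin2 passed the test of a change over the days that the arms share (the same edgeR fit, 4 day terms together, adjusted p = 0.0242); without day 0 it did not (adjusted p = 0.0686). From day 0 to day 7 its CPM rose 2.41-fold in the DsRed arm (1.53 to 3.95) and 2.19-fold in the FoxO6 arm (1.45 to 3.35), and these intervals overlap. Between the arms, the ratio of the FoxO6 over the DsRed arm was 0.559 at day 3 (0.376 to 0.827, 48 against 63 reads) and 0.542 at day 5 (0.389 to 0.753, 70 against 84 reads), and its interval reached past 1 on the other 3 days. The shift between the arms, -0.42 log2 units (standard error 0.21), did not pass edgeR's test (adjusted p = 0.221).

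Nkd2 (ENSMUSG00000021567, chromosome 13, 73818534 to 73847631, minus strand), the paralog of Nkd1, stayed low and lay on the other side of the arms. Its TPM was 1.96, 3.68, 4.13, 2.09 and 1.88 in the DsRed arm, from at most 10 reads, and 10.01, 4.61, 4.46, 8.06 and 2.82 in the FoxO6 arm, from 10 to 38 reads. It was higher in the FoxO6 arm on all 5 days, by more than 2-fold on log2(TPM + 1) at days 0 and 5. On CPM the fold was 4.05 at day 0 (1.59 to 13.2) and 8.13 at day 5 (2.03 to 70.8), where the DsRed arm had 2 reads. At days 1, 3 and 7 the interval held 1 (0.575 to 3.405, 0.408 to 3.51 and 0.738 to 8.84). At day 5 the effective length was 1395 bases in the DsRed and 3060 in the FoxO6 library, and the difference on log2(TPM + 1) was 1.55. The shift between the arms came to 1.27 log2 units (standard error 0.445) and missed the threshold of edgeR's test (adjusted p = 0.0842); without the filter on low counts, the adjusted p was 0.0193. Nkd1 made up 69.1%, 26.6%, 84.2%, 98.7% and 99.0% of the summed TPM of Nkd1 and Nkd2 in the DsRed arm and 23.7%, 35.9%, 74.6%, 77.4% and 95.9% in the FoxO6 arm. From day 3 on Nkd1 thus had the larger part in both arms, and at each of those days its part was smaller in the FoxO6 arm.

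The ligase gene Znrf3 (ENSMUSG00000041961, chromosome 11, 5276324 to 5444847, minus strand) had a TPM of 6.41, 9.48, 7.50, 15.0 and 14.6 in the DsRed arm and of 8.53, 6.76, 11.4, 9.32 and 6.35 in the FoxO6 arm. Its CPM at day 7 was 1.94-fold that at day 0 in the DsRed arm (1.19 to 3.29) and 0.834-fold in the FoxO6 arm (0.520 to 1.32). On log2(TPM + 1) the change from day 0 to day 7 was 1.08 in the DsRed arm and -0.375 in the FoxO6 arm. With the trend with transcript length removed, these became 0.76 and 0.06. The CPM ratio of the FoxO6 over the DsRed arm was between 1.26 and 1.29 at days 0, 1 and 3, with intervals that held 1, although at day 1 the TPM was lower in the FoxO6 arm, since the effective length was 3068 bases in that DsRed library and 5573 in the FoxO6 one. The CPM ratio was then 0.488 at day 5 (0.319 to 0.741, 42 against 56 reads) and 0.542 at day 7 (0.345 to 0.834, 32 against 70 reads). The steady change of the difference with the day, -0.22 log2 units per day (standard error 0.076, unadjusted p = 0.0133, adjusted p = 0.161), did not pass edgeR's test of the product of arm and day. With an offset for length in the same fit it was -0.165 (adjusted p = 0.346).

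Rnf43 (ENSMUSG00000034177, chromosome 11, 87662722 to 87735539) was at or near the floor of these libraries. Its TPM was 0.60, 0.43, 0.38, 1.13 and 13.1 in the DsRed arm, from 1, 1, 1, 2 and 16 reads. In the FoxO6 arm there was 1 read at day 0, 1 at day 3 and none at days 1, 5 and 7. At day 7 Rnf43 was at least 4.5-fold lower in the FoxO6 arm when its 0 reads were set to a floor of 3, and the exact interval of the CPM ratio ran from 0 to 0.307, which allows a smaller difference than that. The other 9 libraries had at most 3 reads each. The TPM of 13.1 rests on an effective length of 1257 bases, the shortest that the gene has in any library (longest 3610).

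Sp5 (ENSMUSG00000075304, chromosome 2, 70474923 to 70477729) was also near the floor, with 31 reads over all 10 libraries. Its TPM was 0, 0.65, 0.67, 2.86 and 4.03 in the DsRed arm and 1.34, 1.19, 1.01, 1.94 and 3.29 in the FoxO6 arm. The highest value of each arm was that of day 7, from 8 and 6 reads. The interval of the CPM ratio between the arms held 1 on all 5 days, from 0.254 to 2.92 at day 7, so no difference was detectable at this depth.

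**Figure D2:**
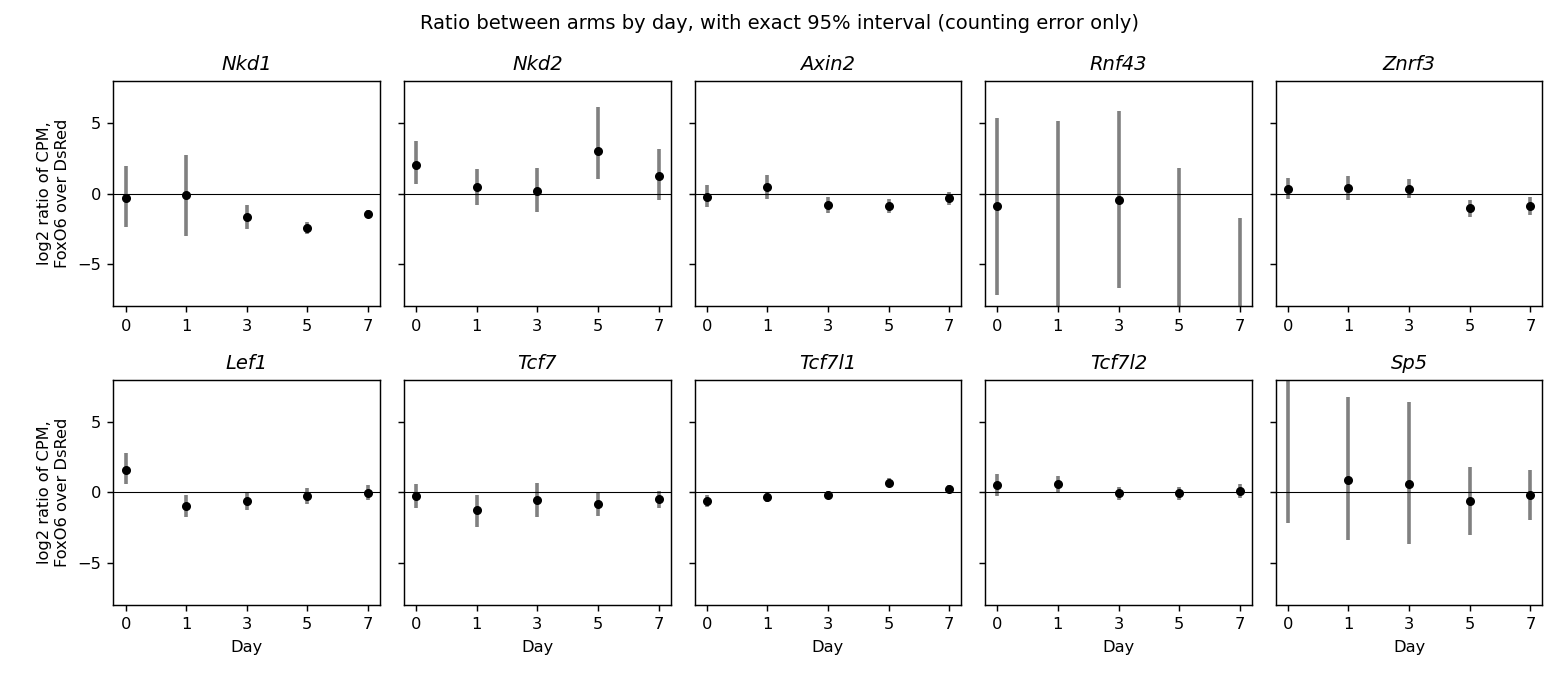
Log2 ratio of the TMM-scaled CPM of the FoxO6 over the DsRed arm (vertical axis) by day for the 10 genes, with the exact 95% interval from the split of the reads as a grey line. Lines that reach the frame go on beyond it, and a line with no point marks a day on which 1 arm had no read. The interval of Nkd1 lies below 0 at days 3, 5 and 7, and those of Rnf43 and Sp5 hold 0 except for Rnf43 at day 7.

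Among the TCF/LEF factors, Tcf7l1 (ENSMUSG00000055799, chromosome 6, 72626378 to 72789254, minus strand) had the highest level. Its TPM was 55.3, 81.8, 91.8, 60.8 and 92.2 in the DsRed arm and 41.6, 57.4, 83.8, 101 and 104 in the FoxO6 arm. In the FoxO6 arm the level was higher at each later day, while in the DsRed arm it dipped at day 5. The ratio of the FoxO6 over the DsRed arm on CPM was 0.646 at day 0 (0.491 to 0.852, 120 against 99 reads) and 1.61 at day 5 (1.29 to 2.02, 279 against 113 reads), on opposite sides of 1. The intervals held 1 at the other 3 days. Over the course the shift came to -0.02 (standard error 0.176, adjusted p = 0.953), and the slope of the difference was 0.15 log2 units per day (standard error 0.048, unadjusted p = 0.0104, adjusted p = 0.145), which did not pass edgeR's test.

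Tcf7l2 (ENSMUSG00000024985, chromosome 19, 55741820 to 55933654) followed in level. Its TPM was 24.7, 28.0, 52.5, 43.8 and 28.6 in the DsRed arm and 19.0, 39.2, 33.3, 40.97 and 24.9 in the FoxO6 arm. The highest TPM was that of day 3 in the DsRed arm and that of day 5 in the FoxO6 arm, and on CPM day 5 was highest in both (51.4 and 48.9). Its effective length, which RSEM weights by the isoforms it assigns, ran from 1315 bases in the DsRed arm at day 0 to 3002 in the FoxO6 arm at day 7, and the order of the arms at day 0 depends on it: the difference of the FoxO6 from the DsRed arm was -0.36 on log2(TPM + 1), while the CPM ratio was 1.42 (0.848 to 2.47, 56 against 21 reads). The interval of the CPM ratio held 1 on all days but day 1, where the ratio was 1.498 (1.006 to 2.25, 69 against 42 reads). Tcf7l2 passed neither the test of a shift between the arms (log2 fold change 0.18, standard error 0.165, adjusted p = 0.536) nor that of a change over the days (adjusted p = 0.0528), both from the edgeR fit. The change over the days was called with the offset for length (adjusted p = 0.0383), without the low-count filter (0.0253), without day 1 (0.0474) and without day 7 (0.0246), and the adjusted p reached 0.488 without day 0 and 0.192 with DESeq2.

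Lef1 (ENSMUSG00000027985, chromosome 3, 131110471 to 131224356) and Tcf7 (ENSMUSG00000000782, chromosome 11, 52252371 to 52283014, minus strand), which are targets of the pathway as well as its factors, had lower levels. The TPM of Lef1 was 4.07, 18.2, 29.4, 41.9 and 23.8 in the DsRed arm and 14.9, 11.0, 20.8, 28.8 and 26.4 in the FoxO6 arm. At day 0 Lef1 was higher in the FoxO6 arm (51 against 9 reads, CPM ratio 3.02, 1.47 to 6.98), and at days 1 and 3 it was lower, with ratios of 0.509 (0.295 to 0.858) and 0.635 (0.416 to 0.965). Its shift between the arms came to -0.16 (standard error 0.286, adjusted p = 0.775, edgeR). It was -0.44 without day 0 (adjusted p = 0.219) and 0.04 without day 1 (adjusted p = 0.962), so its size and sign depend on the days used. Its CPM at day 7 was 4.61-fold that at day 0 in the DsRed arm (2.29 to 10.5) and 1.49-fold in the FoxO6 arm (1.0 to 2.22), where it began at a higher level, and over both arms it did not pass the test of a change over the days (adjusted p = 0.389).

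The TPM of Tcf7 was 14.8, 17.3, 10.5, 20.9 and 30.7 in the DsRed arm and 12.8, 6.10, 5.92, 12.04 and 18.1 in the FoxO6 arm. Tcf7 was lower in the FoxO6 arm on all 5 days, both on TPM and on CPM, and each arm had its lowest level at day 3 and its highest at day 7. The CPM ratio was 0.418 at day 1 (0.185 to 0.886, 11 against 24 reads), and on the other 4 days the interval held 1. The shift between the arms came to -0.66 log2 units (standard error 0.227), which missed the threshold of edgeR's test (unadjusted p = 0.0147, adjusted p = 0.0815). The change over the days that the arms share did pass it (adjusted p = 0.0227), but not with DESeq2 (adjusted p = 0.105), without day 3 (0.0846) or without day 7 (0.241).

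TPM is per transcript length, so the levels of the 4 factors can be set side by side within a library. Tcf7l1 made up 50.2% ± 8.2 (SD over the 5 days, n = 5 libraries) of their summed TPM in the DsRed arm and 54.2% ± 5.39 in the FoxO6 arm, and it was the largest share in all 10 libraries. Tcf7l2 made up 23.1% ± 5.08 and 23.2% ± 7.24, Lef1 14.2% ± 7.5 and 14.4% ± 2.78, and Tcf7 12.5% ± 4.41 and 8.19% ± 4.24. The means of Tcf7l1, Tcf7l2 and Lef1 differed between the arms by less than either SD over the days, and those of Tcf7 by about as much as it. This SD is the spread over the days and does not measure the error of a difference between the arms. Day by day, the share of Tcf7 was lower in the FoxO6 arm on all 5 days, for example 10.4% against 17.5% at day 7 and 14.5% against 14.96% at day 0. Each of the other shares was higher on some days and lower on others. The lowest share of Tcf7l1, 36.3%, was that of the DsRed arm at day 5, where Lef1 reached its highest, 25.01%. That library had the shortest effective length of Lef1 (1603 bases), and on CPM its Lef1 level (33.3) lay below those of days 3 and 7 in the same arm (35.3 and 36.3). Their summed TPM was 98.9 at day 0 and 175 at day 7 in the DsRed arm and 88.3 and 174 in the FoxO6 arm.

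**Figure D3:**
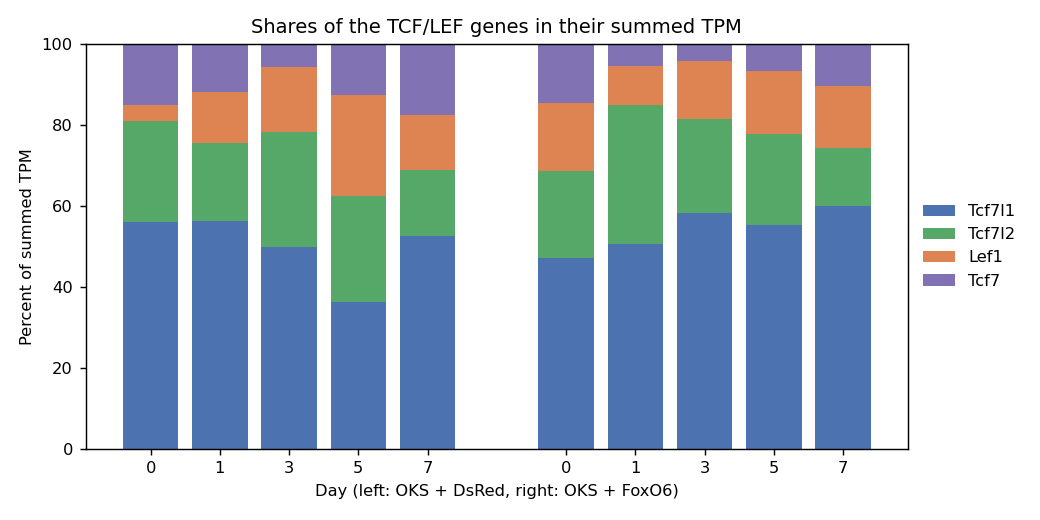
Share of Tcf7l1, Tcf7l2, Lef1 and Tcf7 in their summed TPM (vertical axis, percent) in each of the 10 libraries, by day, with OKS + DsRed on the left and OKS + FoxO6 on the right. Tcf7l1, at the bottom, is the largest part of every bar, between 36.3% and 60.0%.

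Over all 10 libraries the mean TPM placed the genes in the order Tcf7l1 (77.0 ± 21.7, SD, n = 10), Nkd1 (48.2 ± 67.9), Tcf7l2 (33.5 ± 10.4), Lef1 (21.9 ± 10.7), Axin2 (19.7 ± 10.7), Tcf7 (14.9 ± 7.39), Znrf3 (9.54 ± 3.2), Nkd2 (4.37 ± 2.7), Sp5 (1.70 ± 1.3) and Rnf43 (1.63 ± 4.04). The ranges of every pair of neighbours in this order overlapped. Tcf7l2 was above Lef1 in 9 of the 10 libraries and Znrf3 above Nkd2 in 9, while Axin2 was above Tcf7 in 6. Nkd1 owes its place to days 5 and 7, and it was above Tcf7l2 in 3 libraries.

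On single days, calls past 2-fold on log2(TPM + 1) were few. At day 0, Nkd2, Lef1 and Sp5 were called higher in the FoxO6 arm, which is 3 of the 9 genes with a TPM above 1 in either library, against 14.7% of all such genes. None was called lower, against 9.43%. At day 1, Tcf7 was called lower (background 13.3%) and none higher (11.3%), and at day 3 none was called in either direction (15.5% lower, 11.4% higher). At day 5, Nkd1 and Rnf43 were called lower (15.0%) and Nkd2 higher (13.8%), and at day 7 Nkd1, Rnf43 and Znrf3 were called lower, 3 of 10 genes against 21.3%, and none higher (10.7%). The call of Znrf3 at day 7 (-1.09) was lost on CPM (-0.85) and with the length trend removed (-0.64), which leaves 2 genes. The calls of Sp5 and Rnf43 rest on at most 3 reads except for Rnf43 at day 7. The steady change of the difference with the day was called for none of the 8 genes tested, with 2 at an unadjusted p under 0.05 (Znrf3 and Tcf7l1), while edgeR called 1.61% of all genes tested.

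During the course of the DsRed arm, 7 of the 10 genes were called more than 2-fold higher at day 7 than at day 0 (Nkd1, Axin2, Rnf43, Znrf3, Lef1, Tcf7 and Sp5) and none lower, against 26.2% of all genes higher and 13.7% lower. In the FoxO6 arm, 3 of the 9 genes that could pass were called higher (Nkd1, Axin2 and Tcf7l1) and Nkd2 lower, against 17.4% and 20.3%. The median difference of the genes was 1.04 in the DsRed arm and 0.79 in the FoxO6 arm, against 0.19 and -0.10 for all genes that could pass. Axin2, Tcf7 and Znrf3 lay close to the threshold in the DsRed arm, at 1.01, 1.00 and 1.08 on log2(TPM + 1), and 4 genes were called once the trend with transcript length was removed. On CPM 6 of the 10 genes were past 2-fold higher on the log2 scale: Tcf7 (0.88) and Znrf3 (0.92) were not, and Tcf7l2 was (1.06 against 0.20 on TPM), with a CPM fold of 2.15 (1.31 to 3.67). Whether the 2 courses differ was tested only by the shift and the slope above.

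**Figure D4:**
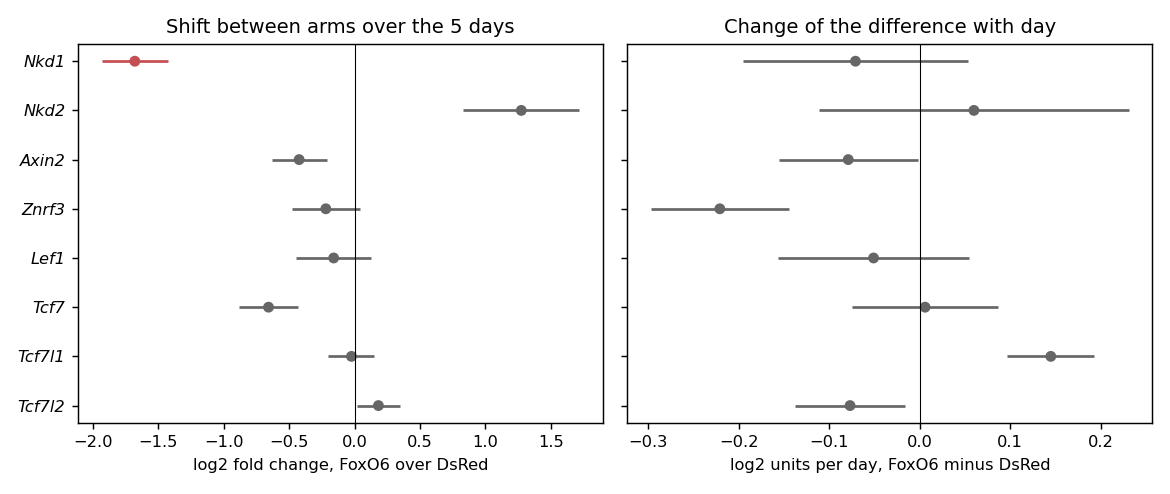
Log2 fold change over the 5 days (left) and change of the difference per day (right) for the 8 genes tested, as points with bars of 1 standard error from edgeR's quasi-likelihood fit, with red for an adjusted p under 0.05. Nkd1, at -1.68, is the only red point, and all slopes lie between -0.22 and 0.15.

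The other genes of the pathway were taken from 6 lists, whose counts for the shift stand against 13.4% of all genes tested that were called in either direction (6.48% higher and 6.97% lower). Of 17 genes of beta-catenin, the destruction complex and Dishevelled, all were tested and none was called for the shift, with 2 at an unadjusted p under 0.05 in edgeR's test (Csnk1e, 0.38, adjusted p = 0.0882, and Csnk1d, 0.27, adjusted p = 0.136). The highest of them, Ctnnb1, which encodes beta-catenin, had a TPM between 341 and 441 in the DsRed arm and between 317 and 449 in the FoxO6 arm, and the arms differed by 0.03 log2 units (standard error 0.117, adjusted p = 0.893). Of 17 nuclear partners of the TCF/LEF factors, Bcl9, a beta-catenin adaptor, was lower in the FoxO6 arm (-0.51, standard error 0.136, adjusted p = 0.0334). The corepressor Tle4 passed the test of the slope, with a difference that fell by 0.20 log2 units per day (standard error 0.043, adjusted p = 0.0369), from a TPM of 8.98 in the DsRed arm and 17.96 in the FoxO6 arm at day 0 to 69.6 and 42.8 at day 7. At days 1, 3 and 5 its TPM was 26.5, 59.8 and 73.5 in the DsRed arm and 39.8, 61.7 and 62.2 in the FoxO6 arm. The slope thus leans on the 2 end days, with 1 library per arm at each. Its call under the other settings is not given here. Aes, the TCF/LEF partner with the highest mean TPM (857), passed neither test.

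Among 14 receptor genes tested of 18, the R-spondin receptor Lgr6 was lower in the FoxO6 arm, by -3.08 log2 units over the course (standard error 0.259, adjusted p = 7.96e-05), the largest difference among the tested genes of these lists. The TPM of Lgr6 was 15.9, 30.5, 49.9, 69.4 and 67.1 in the DsRed arm and 5.35, 4.52, 3.41, 8.50 and 5.23 in the FoxO6 arm, so that the arms did not overlap. Its relative Lgr4 did not pass: it differed by 0.001 log2 units (standard error 0.13, adjusted p = 0.996) and had a TPM between 29.7 and 92.4. Ryk, with the highest mean TPM of the receptors (77.8), did not pass either (adjusted p = 0.271). R-spondins bound to Lgr receptors take Rnf43 and Znrf3 off the membrane. Of 25 ligand and secretion genes only 6 were tested, and Wls, the carrier that brings Wnt proteins to the cell surface, was higher in the FoxO6 arm (0.82, standard error 0.178, adjusted p = 0.0128), with a TPM of 67.7 in the DsRed arm and 167 in the FoxO6 arm at day 7.

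Of 22 other Wnt target genes 11 were tested, of which Ccnd1 (-0.91, standard error 0.104, adjusted p = 0.00038), Ccnd2 (-0.83, 0.156, 0.00598) and Cd44 (-0.54, 0.116, 0.0121) were lower and Twist1 (0.99, 0.156, 0.00235) was higher in the FoxO6 arm. The first pair are D cyclins, Cd44 is a hyaluronan receptor and Twist1 a mesenchymal transcription factor, and all 4 are expressed in fibroblasts. The secreted inhibitors Notum (-1.13, standard error 0.34, adjusted p = 0.0502) and Apcdd1 (-0.81, 0.245, 0.0518), which like Nkd1 rose over the days (adjusted p = 0.000283 and 0.0123), lay just outside the threshold. Also at an unadjusted p under 0.05 in edgeR's test, but not called, were Gbx2 (-1.54, adjusted p = 0.165) and Tnfrsf11b. Tnfrsf11b lay on the other side, higher in the FoxO6 arm (0.56, adjusted p = 0.0864). Notum went from a TPM of 2.26 to 184 in the DsRed arm and from 6.57 to 122 in the FoxO6 arm between days 0 and 7. Of 7 genes that Tcf7l1 holds down in embryonic stem cells 4 were tested, and Nanog (-3.01, adjusted p = 0.00618) and Klf2 (-1.24, adjusted p = 0.0276), both pluripotency factors, were lower in the FoxO6 arm, while Tfcp2l1, the highest of them, was at 0.33 (adjusted p = 0.294). The TPM of Nanog was 0, 0, 0.71, 14.9 and 58.35 in the DsRed arm and 0, 0, 0, 1.02 and 8.31 in the FoxO6 arm. Its shift thus rests on days 5 and 7. Over the days that the arms share, the test of change called 1 of 17, 3 of 17, 6 of 14, 2 of 6, 7 of 11 and 4 of 4 genes of the 6 lists in the order given, against 20.2% of all genes tested, and the slope test called Tle4 alone. Nanog, Nr0b1 and Tfcp2l1 had a TPM of at most 0.39 at day 0 in both arms, and Gbx2 one of 0. They could thus pass the low-count filter only through later days, and a change over the days was close to fixed in advance for them. The 4 of 4 can therefore not be read against the 20.2%. The lists were made with results of these data known, and their counts are descriptions.

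**Figure D5:**
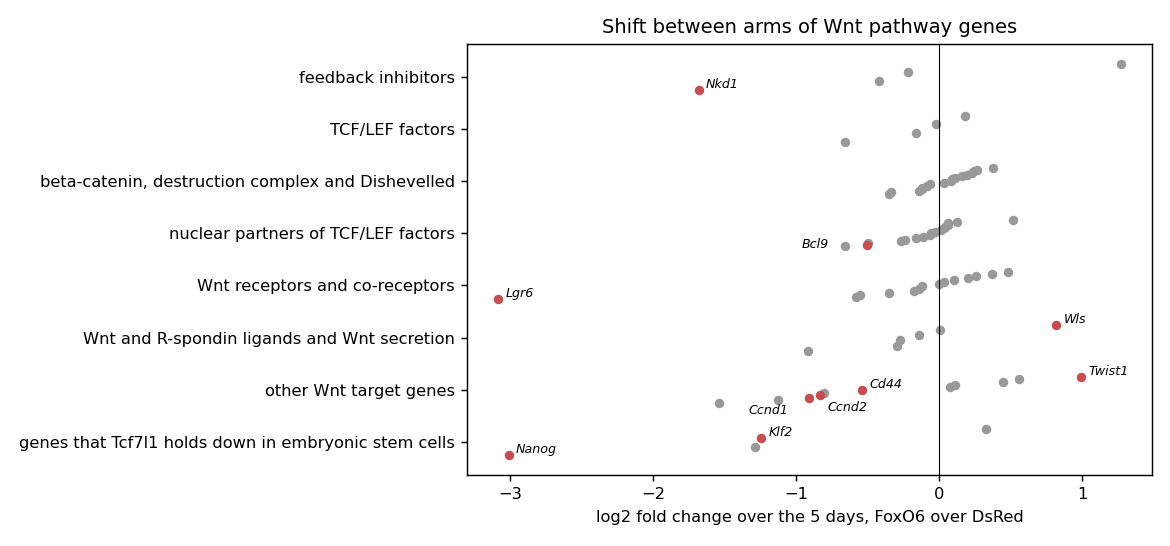
Log2 fold change of the FoxO6 over the DsRed arm over the 5 days (horizontal axis) for every tested gene of the described set and of 6 further lists of the Wnt pathway, 1 row per list, with red and a name for an adjusted p under 0.05 in edgeR's quasi-likelihood test. Nkd1 (-1.68), Lgr6 (-3.08) and Nanog (-3.01) lie farthest to the left, and Wls and Twist1 are the red points on the right. The shift of Nanog rests on days 5 and 7.

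The genes with the most similar courses were found by the root mean square difference between profiles of log2(TPM + 1), centred over the 10 libraries, among the 9849 genes whose mean TPM reached 10. Nearest to Nkd1 were Elf3 (0.34 log2 units), an epithelial transcription factor with a TPM of 56.9 in the DsRed arm and 17.5 in the FoxO6 arm at day 7, Gdf3 (0.43), a TGF-beta family ligand of pluripotent cells with 55.8 and 30.8, and Gm38312 (0.55). Elf3 had a TPM of 0 at days 0 and 1 in both arms. Nearest to Axin2 were Net1 (0.23), Rps6ka2 and Atxn7l2, to Lef1 Taf1b (0.26), Hoxa10 and Gm43830, and to Tcf7 Igsf8 (0.27), 1700027J19Rik and Nipsnap1. Nearest to Tcf7l1 were Ccdc61 (0.16), Cyth1 and Myl12b, and to Tcf7l2 Ift140 (0.18), Zfp866 and Stk38l. None of the 6 genes compared was among the 3 nearest of another. Znrf3, Nkd2, Sp5 and Rnf43, with a mean TPM under 10, were not compared. These are descriptions over 10 libraries that share their days.

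The labelled cell type showed in its markers. The 7 fibroblast markers (Col1a1, Col1a2, Col3a1, Thy1, Pdgfrb, Twist2 and Vim) summed to a TPM of 7438 at day 0 and 2293 at day 7 in the DsRed arm and to 6255 and 2461 in the FoxO6 arm, with Vim the highest of them. Of the 7, edgeR's test of the shift called Col3a1 alone, lower in the FoxO6 arm (-0.64, adjusted p = 0.0198). Col1a1 (-0.48) and Vim (-0.295) also had a negative log2 fold change. Pdgfrb (0.80), Col1a2 (0.465), Thy1 (0.16) and Twist2 (0.01) had a positive one, and the median of the 7 was 0.01. The difference in Col1a2 rose with the day (0.36 log2 units per day, adjusted p = 0.00175, edgeR). Of other cell types, 6 leukocyte markers summed to between 14.1 and 55.8 in the DsRed arm and between 17.98 and 29.02 in the FoxO6 arm, mostly from Cd68, with Ptprc at most 0.60. The 5 endothelial markers summed to at most 8.01 and 2.74. The 5 muscle markers reached 237 in the FoxO6 arm at day 7 through Acta1, against 6.06 in the DsRed arm, with Myog at 0 in all libraries, and the slope of Acta1 was called (0.82 log2 units per day, adjusted p = 0.0345, edgeR). The part of these cells in the results was not tested.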

How the data were processed

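Bulk RNA-seq libraries of 2 arms at 5 days were used, 1 library each, grouped by the sample titles. The authors aligned the reads to the GENCODE M13 transcriptome with RSEM and bowtie2, and the submitters' processing notes name mm10. The deposited expected counts are RSEM estimates without scaling, and the TPM values come from the same RSEM runs of the authors, scaled by effective length. The strand setting is not given in the sources used here. The series table gave the symbols, and its counts equal those of the files per library. It lacks 2124 genes. Gene positions come from GENCODE M21 (GRCm38).

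Expected counts were rounded and fitted in R 4.3.3 with edgeR 4.0.16 (TMM, filterByExpr, day as a factor, quasi-likelihood tests, adjusted p under 0.05, common dispersion 0.0366), with DESeq2 1.42.0 as an alternative. The tests were tried on simulated data. They describe the spread between these libraries around shared day effects, not that between independent infections. Differences on log2(TPM + 1), which shrinks the fold of a low gene, were called past 2-fold. Python 3.11.15 (scipy 1.17.1, with pandas 2.3.3 for tables) gave exact 95% intervals of CPM ratios from the binomial split of the reads. A fold against 0 reads was set against 3 reads per library. Read depth, between 1208379 and 2225750 reads, sets the width of these intervals. Exons of Axin2, Lef1 and Tcf7l1 overlap those of antisense genes.

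The genes and lists were chosen with earlier results of these data known. Named were all 10 genes, the genes of the 6 other lists that passed the shift or slope test or had the highest mean TPM of their list, and the 3 most similar courses. Notum, Apcdd1, Gbx2, Tnfrsf11b, Nr0b1, Lgr4, Csnk1d and Csnk1e were named after their values were seen. Alternatives were other size factors, no filter, an offset for length, each day left out, no day term, day ranks, another pseudocount, CPM, removal of the length trend, and shares without length.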

Additional observations from a re-analysis of the deposited data

How the results depend on the processing

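The lower level of Nkd1 in OKS + FoxO6 kept its direction and its call with other size factors, with no filter, with an offset for length, with DESeq2 and without each day in turn, with log2 fold changes between -1.84 and -1.30 when a day was left out. It was not called with no day term (-1.74, adjusted p = 0.544), where the change over the days goes into the spread. Of the 8 genes tested, 1 was called for the shift, against 2 without the low-count filter (Nkd1 and Nkd2) and 0 with no day term. For the change over the days 3 were called, against 5 without the filter (also Tcf7l1 and Tcf7l2), and Tcf7l1 was also called without day 5 (adjusted p = 0.0487); the call of Axin2 was lost without day 0 (adjusted p = 0.0686). On CPM, 1 gene (Nkd1) was past 2-fold lower at day 3, against 0 on TPM, and with the length trend removed 4 genes were past 2-fold higher at day 7 of OKS + DsRed, against 7. The shares of Tcf7l1 moved by less than the SD over the days with either other length. Over all genes, the shift called 1642 genes, 159 with no day term and 705 to 1640 with a day left out (773 without day 3, 705 without day 5), the slope 197, 648 without the filter and 91 to 289 with a day left out (121 without day 0, 91 without day 7), and the change over the days 2466, 3804 and 1113 (without day 0) to 2737. The main fit already compared the arms within each day through its day factor, and the fit with no day term is the one without that pairing. At this depth Rnf43 and Sp5 could not be compared except for Rnf43 at day 7.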
